A study of Arabidopsis thaliana with 16 samples.

Results

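The comparison described here set gynoecia of the seuss-3 aintegumenta-1 (seu-3 ant-1) double mutant of Arabidopsis thaliana, called seu ant, against gynoecia of wild-type Col-0 plants. Its members were the arrays whose labels give these genotypes, 4 of seu ant and 4 of wild type among the 16 arrays of the series, and all 22746 probe sets that are not controls. The other 8 arrays, 4 of seu-3 and 4 of ant-1 single mutants, were used to estimate the spread and were set beside the double mutant where stated. All plants were untreated, and each array carried RNA of its own pool of 15 to 25 gynoecia that had been dissected by hand at floral stages 8 to 10. The pools are the replicates, the mutations were present in the whole plant, and the labels give no age of the plants beyond the floral stage.

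The gynoecium is the seed-bearing organ of the flower. Ovules arise from a meristem at the fused margins of its carpels, the carpel margin meristem. SEUSS (SEU) is a transcriptional adaptor that works with DNA-binding partners, and AINTEGUMENTA (ANT) is an AP2-type transcription factor that prolongs growth of organ primordia. Gynoecia that lack both are known to form no ovules, so the comparison asks which transcripts differ between such gynoecia and normal ones at the stages when ovules would arise. Because whole gynoecia were sampled, fewer cells of a type and less RNA per cell cannot be told apart in any result below.

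Signals are the authors' deposited MAS5 intensities, on a linear scale on which each array has the same trimmed mean. Values under 16 were set to 16, called the floor here, before log2 was taken. Array medians lay between 179.2 and 188.6 in wild type and between 167.4 and 177.7 in seu ant, and 20.0% to 24.4% of probe sets were under the floor on an array of these genotypes. Pearson correlations across probe sets were 0.972 to 0.983 between wild-type arrays, 0.976 to 0.984 between seu ant arrays and 0.937 to 0.969 across the 2 genotypes. No pair of arrays was identical, and the number of arrays limits the precision. A gene was paired with a probe set for 13776 probe sets, which represent 13621 genes.

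The SEU transcript (AT1G43850) checked the labels for the seu-3 mutation only. Its signal was 978, 974, 974 and 786 on the wild-type arrays and 235, 271, 267 and 273 on the seu ant arrays. All 4 seu ant arrays thus lay far below wild type, and the log2 level fell by 1.82 (standard error 0.17, limma adjusted p = 1.01e-05). Its relative SLK1, a SEUSS-like adaptor, had a change of -0.24 (standard error 0.19) that did not pass the test. Between seu ant and the seu single mutant the SEU transcript differed by -0.1 (standard error 0.17), so it cannot tell these genotypes apart. The ANT transcript was not analysed here, and the label of the ant-1 mutation was thus not checked.

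Transcript levels differed widely between the genotypes. At a Benjamini-Hochberg adjusted p under 0.05 in limma and a log2 difference over 0.35, 2597 probe sets were lower in seu ant (11.4% of those tested) and 1887 were higher (8.30%). The falls were more numerous and mostly small, and the rises were larger. Among the falls 568 exceeded 1 on the log2 scale, among the rises 1028 did. Beyond 3 on the log2 scale there were 53 falls and 89 rises. The split between falls and rises depended on scaling. With arrays centred on their medians, 1758 probe sets were lower and 2316 higher, and the median change over all probe sets moved from -0.031 to 0.053. With quantile normalization the counts were 2205 and 2013. Counted by gene at the brightest probe set, 1465 of 13621 were lower (10.8%) and 945 were higher (6.94%), and these shares are the background for the gene groups below.

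**Figure D1:**
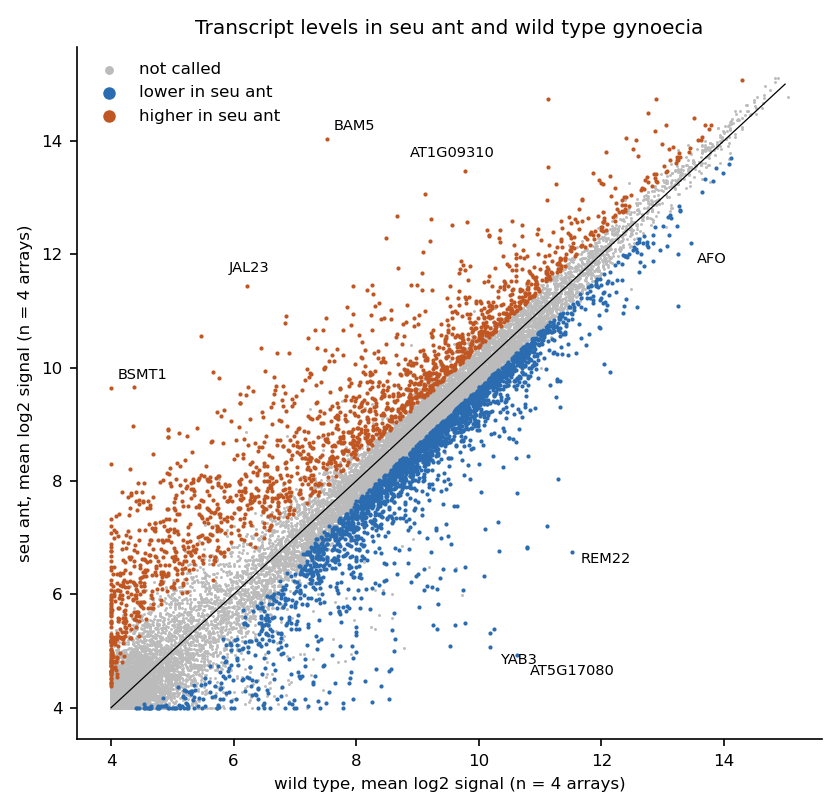
Mean log2 signal of each of 22746 probe sets in wild type (horizontal axis) and seu ant (vertical axis), 4 arrays each, with probe sets called lower in blue and higher in orange; the diagonal marks equal levels. The 2597 falls lie in a dense band just under the diagonal, while the 1887 rises reach farther from it, and BSMT1 starts at the floor (log2 signal of 4) in wild type.

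Calls were rare among dim probe sets and the 2 directions were not spread alike over signal levels. Probe sets were split into 5 classes of equal size by mean signal. In the dimmest class, with mean signals up to 19.5, 5 were lower and 6 higher. In the next class, up to 64.3, 4.48% were lower and 7.74% higher. The share that was lower rose to 18.7% and 19.8% in the 2 classes between 64.3 and 808, where 12.3% and 8.53% were higher. In the brightest class the shares were 14.1% and 12.8%.

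The 15 largest falls were drawn from called genes whose seu ant arrays all lay below all wild-type arrays, which held for 9.84% of probe sets. AT5G17080, annotated as cathepsin-related, had signals of 1204, 1923, 1607 and 1713 in wild type and 21.5, 18.9, 62.4 and 34.5 in seu ant. On the log2 scale its level fell by 5.70 (standard error 0.34, adjusted p = 4.73e-07). AT1G03720, with the same annotation, went from 1058, 1366, 1145 and 1099 to 27.6, 32.5, 60.2 and 47.7. In both genes the highest seu ant array lay far below the lowest wild-type array. AT1G03720 fell by 4.86 (standard error 0.21).

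YAB3 (AT4G00180), a YABBY transcription factor of the outer, abaxial side of organs, had signals of 1090, 1175, 1098 and 1313 in wild type. In seu ant it was under the floor on 1 array and at 61.1, 23.9 and 54.9 on the others. YAB3 thus fell by 5.11 (standard error 0.38, adjusted p = 2.48e-06). REM22 (AT3G17010), of the B3-domain REPRODUCTIVE MERISTEM family, was among the brightest transcripts that were nearly lost. It went from 3530, 2726, 2834 and 2762 in wild type to 46.4, 84.8, 253 and 134, and fell by 4.78 (standard error 0.39). VDD (AT5G18000), a B3-domain gene known from cell identity in the embryo sac, decreased by 3.52 (standard error 0.15), from 737, 742, 555 and 589 to 58.4, 67.4, 52.5 and 50.3. The 4 arrays of each genotype lay close together for VDD, which had one of the smallest errors of the group.

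ARR15 (AT1G74890), a type-A response regulator that dampens cytokinin signalling, had signals of 883, 658, 649 and 367 in wild type and 94.9, 16.2, 61 and 40.5 in seu ant. It fell by 3.79 (standard error 0.43, adjusted p = 4.7e-05). ARD3, an acireductone dioxygenase of the methionine salvage cycle, varied more among wild-type arrays, with 965, 2297, 1398 and 3131, but fell to 129, 64.6, 107 and 187. ARD3 decreased by 3.96 (standard error 0.62). A pair of leucine-rich repeat genes were lower on every seu ant array. AT3G25670 went from 359, 332, 352 and 311 to 34.7 and 21.2 on 2 arrays and to the floor on the other two, and AT1G68780 from 727, 585, 613 and 636 to 31.5, 32.5, 76.7 and 38.8. Of the remaining tight falls, AT4G35070 decreased by 4.45 (standard error 0.36) and AT5G48490, of the lipid transfer protein family, decreased by 3.56 (standard error 0.29).

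AT1G65810 did not exceed the floor on any seu ant array. It is annotated as related to a tRNA-splicing endonuclease effector. Its wild-type signals were 118, 147, 194 and 85.3, so that it was at least 8.14-fold lower in seu ant when set against the floor of 16.

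**Figure D2:**
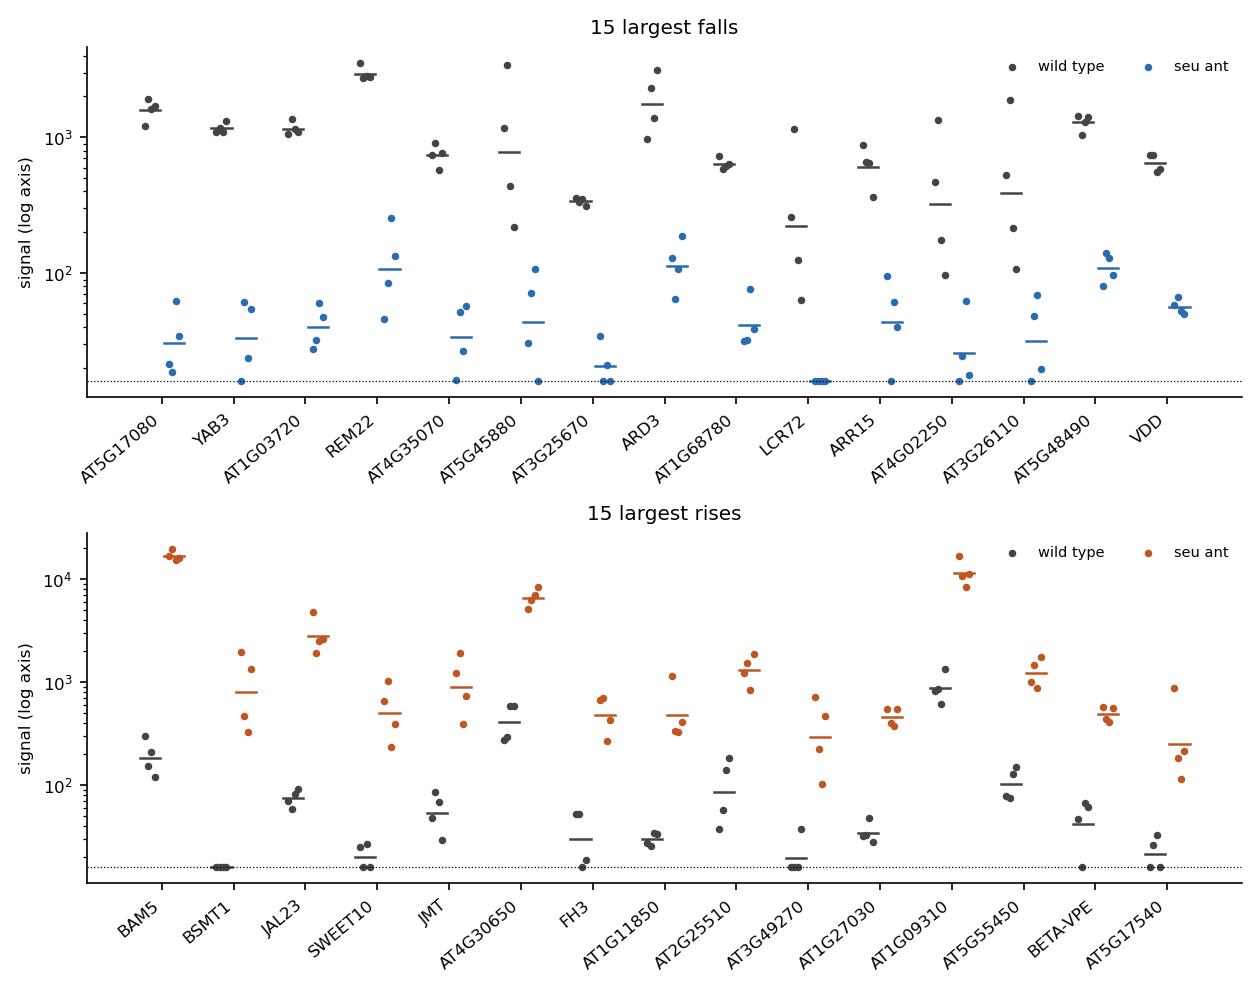
Signal (log axis) on each array for the 15 largest falls (upper panel) and the 15 largest rises (lower panel); dots are arrays, grey for wild type and coloured for seu ant, horizontal bars are the means of log2 signal, and the dotted line is the floor of 16. For AT5G45880, LCR72, AT4G02250 and AT3G26110 the wild-type dots are spread widely, while those of VDD, YAB3 and AT1G68780 lie together.

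The other 4 of the 15 largest falls behaved differently from the rest, in that their wild-type arrays disagreed. LCR72 (AT2G02140), a small cysteine-rich peptide, had signals of 261, 1150, 126 and 64 in wild type and never exceeded the floor in seu ant. It was at least 13.9-fold lower (standard error 1.08 on the log2 scale, adjusted p = 0.0224). AT5G45880 had 1167, 3392, 442 and 219 in wild type, AT4G02250 had 467, 1345, 175 and 96.9, and AT3G26110 had 526, 1884, 216 and 108. In each of these genes wild-type replicate 2 was highest and replicate 4 lowest. Their log2 changes were -4.16, -3.64 and -3.60, with standard errors of 1.26, 1.09 and 1.08. All 4 calls were lost without wild-type replicate 1 (adjusted p of 0.051 to 0.072) and without replicate 2 (0.0688 to 0.0936). The calls of AT5G45880, AT4G02250 and AT3G26110 were also lost without seu ant replicate 1 or replicate 4 (0.07 to 0.0862), and that of AT4G02250 without seu ant replicate 2 (0.0624). Without wild-type replicate 4 the changes of AT5G45880, LCR72 and AT3G26110 were -4.77, -4.39 and -4.22.

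This shared order extended to many probe sets. In wild type, 134 probe sets had a standard deviation over 1.5 on the log2 scale, against 29 in seu ant, 43 in seu and 79 in ant. Wild-type replicate 2 was the highest array for 118 of the 134. Their median log2 signal was 7.02, 8.96, 6.16 and 5.39 on the wild-type arrays and 4.14, 4.93, 5.11 and 4.00 on the seu ant arrays. In the single mutants it was 7.54, 7.44, 4.31 and 5.85 in ant and 4.00, 6.33, 4.00 and 4.20 in seu. Among the members were 3 RALF-like peptide genes. RALFL4 went from 348, 1299, 72.3 and 100 in wild type to at most 40 in seu ant, RALFL26 from 339, 1092, 89.7 and 111 to at most 55.8, and RALFL25 from 149, 848, 96.2 and 48.9 to at most 33.3. Each of these 3 calls was lost without wild-type replicate 1 or 2 or without seu ant replicate 1, 2 or 4 (adjusted p of 0.0657 to 0.141), that of RALFL4 also without seu ant replicate 3 (0.0753) and that of RALFL25 without wild-type replicate 3 (0.0621) or seu ant replicate 3 (0.0701). Of the 134 probe sets, 32 were called lower and 0 higher in limma, where 11.4% and 8.30% of all probe sets were. The group was chosen by its wild-type spread. Without wild-type replicate 2 this became 3 lower and 0 higher, without replicate 1 it was 4 lower and 1 higher, and without replicate 4 it was 58 lower and 1 higher. Without replicate 3 it was 32 lower and 1 higher. Most calls of this group were thus lost without wild-type replicate 1 or 2, and the count did not fall without replicate 3 or 4. What sets those arrays apart was not tested.

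**Figure D3:**
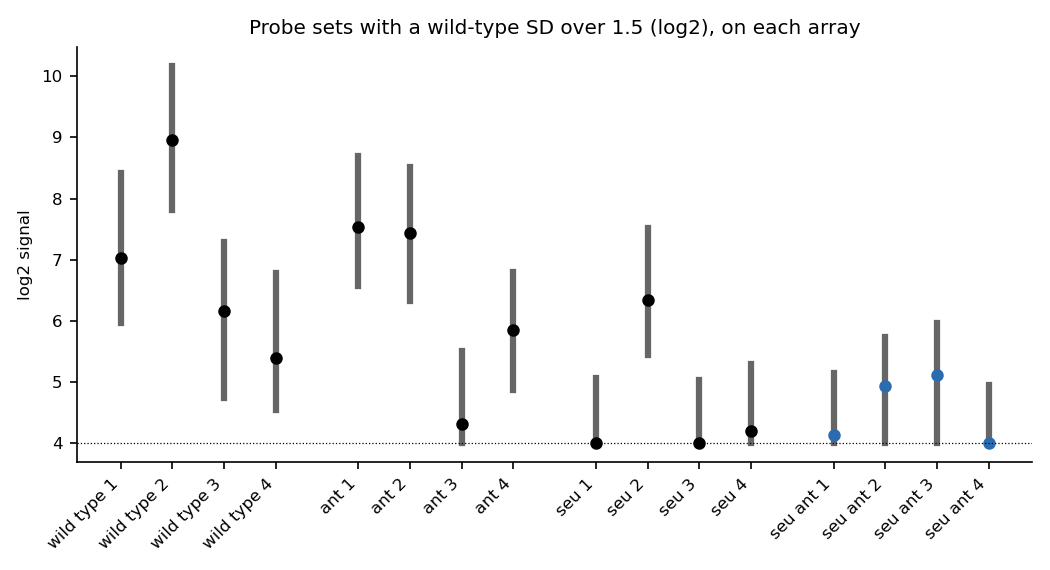
Log2 signal of the 134 probe sets with a wild-type standard deviation over 1.5, on each of the 16 arrays; points are medians over probe sets (blue for seu ant), bars run from the first to the third quartile, and the dotted line is the floor. The wild-type medians run from 5.39 to 8.96, and those of seu ant from 4.00 to 5.11.

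Genes known from anthers and pollen were measured at different levels. Of 4 genes measured from a list of the tapetum, microspore and pollen, 0 were called in limma and 0 had a mean signal over 64. AMS, AT5G07230 and MEE48 were at most 38 on every wild-type and seu ant array. AMS, a regulator of the tapetum, was under the floor on 3 of 4 wild-type and 2 of 4 seu ant arrays. Of 5 SETH genes, a family named for pollen germination and growth, 2 were lower and 0 higher in limma, with a median of -0.41, and 3 had a mean signal over 64. The 134 probe sets with a wide wild-type spread included RALFL4 and other genes known from pollen or anthers, picked out here after their values had been seen. AT59, a pectate lyase, had a change of -2.60 (standard error 0.79) and was called, while PLIM2a (-1.79), ATA27 (-1.33) and ADF7 (-1.31) were not. Their part in the calls was not tested. Of the gynoecium markers, SPT and NGA1 to NGA3 were well above the floor in wild type.

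The largest rise was in BAM5 (AT4G15210), a beta-amylase, an enzyme that releases maltose from starch. Its signal was 302, 154, 209 and 120 in wild type and 16634, 19519, 15403 and 16007 in seu ant, a rise of 6.51 on the log2 scale (standard error 0.24, adjusted p = 1.42e-08). The 4 seu ant arrays lay close together and far above every wild-type array. FH3 (AT4G15200), a formin that nucleates actin filaments, lies directly next to BAM5 in the RefSeq annotation, with 0 genes between them. It went from 52.3 and 53.1, under the floor and 18.8 in wild type to 667, 698, 267 and 426, a rise of 3.99 (standard error 0.49).

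Methyltransferases of defence hormones were among the strongest rises. BSMT1 (AT3G11480), which methylates salicylic and benzoic acid, was not above the floor on any wild-type array and reached 1956, 466, 328 and 1352 in seu ant. It was at least 49.8-fold higher (standard error 0.69 on the log2 scale, adjusted p = 8.22e-05). JMT (AT1G19640), which makes methyl jasmonate, went from 48.2, 85.6, 69.5 and 29.7 to 1222, 1909, 396 and 732, a rise of 4.07 (standard error 0.45). In both genes seu ant replicate 3 was the lowest of its group but lay above every wild-type array. JAL23 (AT2G39330), a jacalin-related lectin, rose from 70.2, 58.6, 81.9 and 92.4 to 4758, 1916, 2480 and 2600.

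SWEET10 (AT5G50790), of a family of sugar transporters, was under the floor on 2 wild-type arrays and at 25.5 and 26.7 on the other two. In seu ant it was at 653, 1023, 236 and 397, a rise of 4.61 (standard error 0.54). AT4G30650, a hydrophobic protein annotated as responsive to low temperature and salt, went from 274, 292, 588 and 584 to 5131, 6192, 7016 and 8274. AT1G09310, annotated as unknown, was already at 614 to 1349 in wild type and rose to between 8259 and 16700. BETA-VPE, a vacuolar processing enzyme that matures seed proteins, rose by 3.53 (standard error 0.35) and AT5G55450, of the lipid transfer protein family, by 3.55 (standard error 0.35). The other 5 of the 15 largest rises, AT1G11850, AT2G25510, AT3G49270, AT1G27030 and AT5G17540, rose by 3.53 to 3.98. AT3G49270 and AT5G17540 were under the floor on 3 and 2 of the 4 wild-type arrays, and without seu ant replicate 1 the rise of AT5G17540 was 2.93. ATSBT5.2, a subtilisin-like protease, was at the floor throughout wild type and at 150, 192, 79.3 and 146 in seu ant, at least 8.43-fold higher.

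The genes with the largest changes were also compared with the single mutants. They had been chosen for extreme values on the same seu ant arrays, which by itself favours a difference, so the counts are a description. Of the 15 largest falls, 11 were also lower in seu ant than in seu and the same 11 were lower than in ant, where 5.23% and 8.88% of named genes were lower. The 4 exceptions are LCR72, AT5G45880, AT4G02250 and AT3G26110. Of the 15 largest rises, 13 were higher than in seu and 15 higher than in ant, where 3.82% and 8.37% of named genes were higher. The 2 that did not pass against seu were AT4G30650 and AT3G49270. Against wild type 6 of the 15 falls were lower in the seu single mutant and 5 in the ant single mutant (0.800% and 2.78% of named genes), and 7 and 2 of the 15 rises were higher there (1.04% and 1.58%). Side by side, and sharing the wild-type arrays, the changes of AT5G17080 were 0.08 for the seu arrays, -1.18 for the ant arrays and -5.70 for the double mutant. For ARR15 they were -0.91, -0.28 and -3.79, and for BAM5 4.76, 2.11 and 6.51. COR15A, a cold-induced protein of the chloroplast, had 0.41, -1.13 and 3.40.

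Genes that shape the carpel margin and style fell more often than they rose. Of 13 measured, SEU among them, 7 were lower, 1 higher and 5 not called, with a median log2 change of -0.56 beside -0.033 over all named genes. NGA1 was among the candidates that the study picked on these arrays. So were YAB3, REM22, VDD, AT5G17080, AT1G03720, AT1G68780, IAA18, IQD18 and EMS1, which are named in other paragraphs. The paper also reported NGA2 and AFO as reduced in seu ant, so their falls below are no new result. Of the genes in the study's tables of candidates with reduced expression, 17 were measured under a name and all 17 were lower. This is no independent evidence of their direction. Genes that the study tested as raised in seu ant are not in this count. NGA1, a NGATHA factor needed for style and stigma, went from 525, 558, 478 and 466 in wild type to 86.9, 47.4, 131 and 76.9, and fell by 2.65 (standard error 0.22). NGA2 fell by 2.49 (standard error 0.25) and NGA3 by 1.68 (standard error 0.25), while NGA4, a dim transcript, had a change of -0.18 (standard error 0.39). NUB, a zinc finger factor of organ growth, went from 654, 587, 573 and 409 to 59.5, 105, 141 and 66.6. SPT, a bHLH factor of the septum and transmitting tract, fell by 1.38 (standard error 0.19), from 915 to 1372 in wild type to 365 to 534 in seu ant. Its close relative ALC, which acts in the fruit margin, moved the other way, from 1366, 1430, 1479 and 1513 to 3315, 3580, 3291 and 4047. The rise of ALC was 1.29 (standard error 0.09, adjusted p = 1.48e-06).

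Regulators of polarity, the difference between the inner and outer side of an organ, were lower for 4 of 7 genes, with none higher. Beside YAB3, AFO (also named FILAMENTOUS FLOWER), the related YABBY gene, had one of the most intense signals. It went from 12409, 10384, 12437 and 10133 to 3806, 4257, 6764 and 4463, and fell by 1.26 (standard error 0.15). PHV, an HD-ZIP factor of the inner, adaxial side, decreased by 1.46 (standard error 0.16), from 1784, 2566, 2190 and 2748 to 717, 811, 943 and 885. KAN3, of the abaxial KANADI group, decreased by 0.79 (standard error 0.23, adjusted p = 0.0243). That call was lost without wild-type replicate 2 or 4 or seu ant replicate 2 or 4 (adjusted p of 0.0603 to 0.0733). KAN2, of the same group, had a change of -0.18 (standard error 0.08). Falls thus occurred in genes of both sides.

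Among the B3-domain REM genes 4 of 7 measured under a name were lower and none higher, with a median of -2.08. Beside REM22 and VDD the lower genes were AT3G46770, which fell by 2.46 (standard error 0.23), and AT4G31615 (REM35), which fell by 2.08 (standard error 0.34). REM22 and VDD were among the study's candidates. The paper also lists REM1, REM15, REM16 and REM34 as reduced candidates. They are not among the 4 lower genes here, so this count does not describe the whole family.

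**Figure D4:**
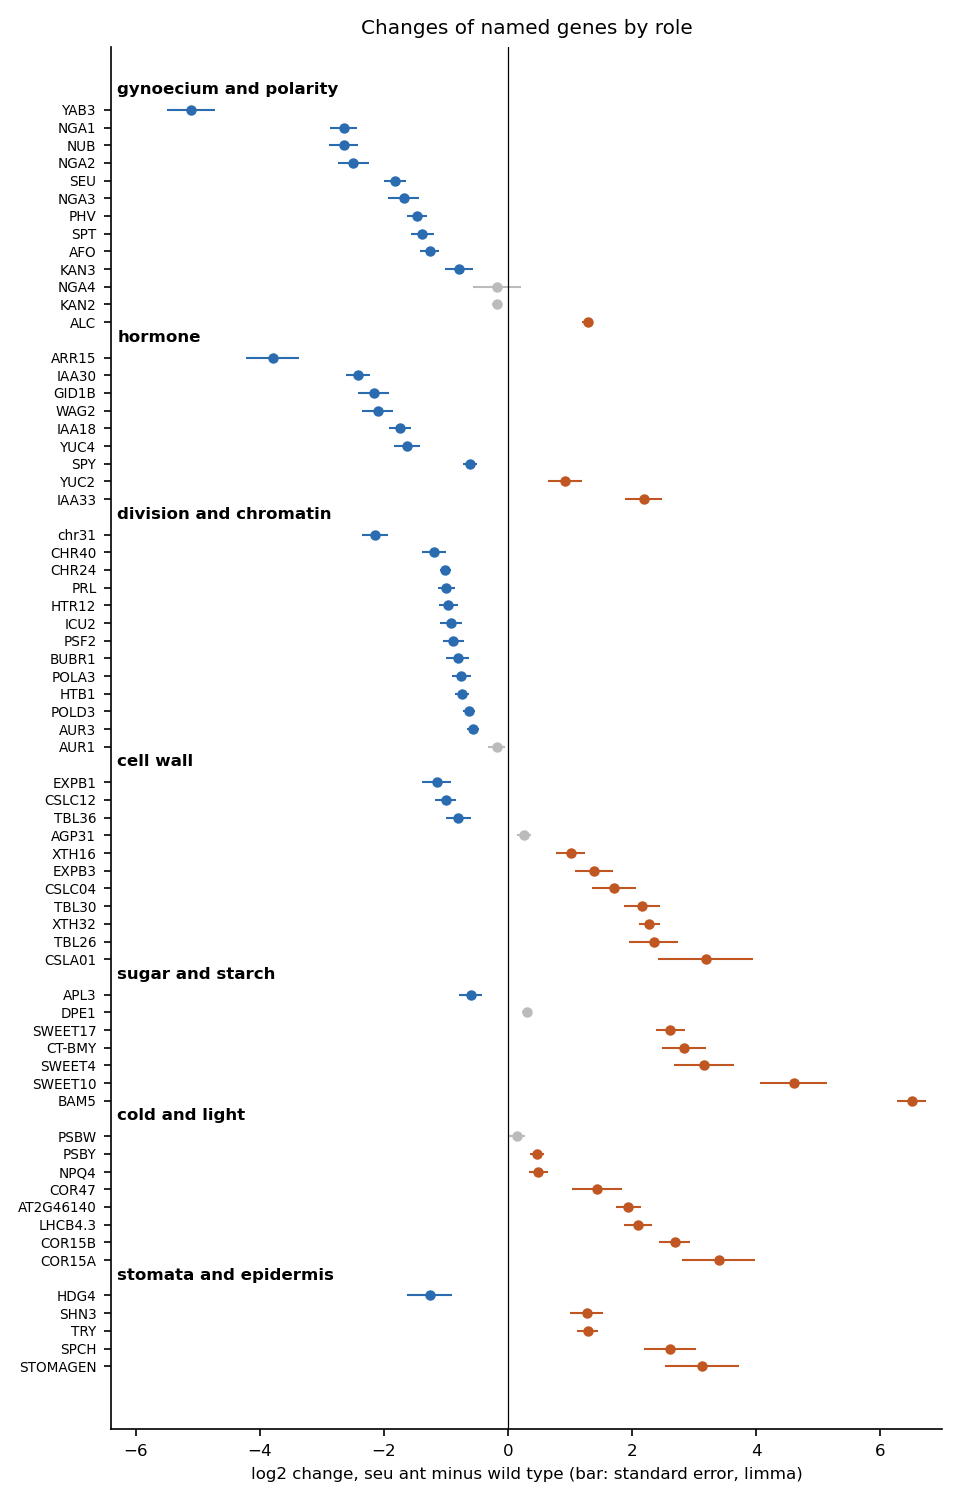
Log2 change in seu ant against wild type of named genes grouped by role; points are limma estimates over 4 arrays per genotype, bars are standard errors, blue is called lower, orange called higher and grey not called. Of the genes shown, those of gynoecium, polarity and division lie mostly left of 0, those of sugar, cold and stomata mostly right of it. They were picked mainly among the strongest calls, so their side of 0 does not stand for whole lists. Of the 31 sugar and starch genes measured, 20 were not called, and the median change was 0.06.

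Hormone genes changed in both directions. In auxin synthesis and transport, 2 of 6 were lower and 1 higher. YUC4, a flavin monooxygenase that makes auxin, went from 226, 289, 236 and 238 to 49, 90.5, 105 and 84.8, and WAG2, a kinase of the family that acts on auxin efflux, from 69.8, 84.8, 87.9 and 84.6 to 18 and 28 on 2 arrays and the floor on the others. YUC4 fell by 1.63 (standard error 0.21) and WAG2 fell by 2.1 (standard error 0.25). YUC2, another gene of the YUC4 family, rose by 0.92 (standard error 0.28, adjusted p = 0.0319), with overlapping arrays. Its call was lost without wild-type replicate 1 or 3 or seu ant replicate 1, 3 or 4 (adjusted p of 0.0708 to 0.0933). YUC6 had 0.62 (standard error 0.46).

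Of 15 auxin response genes, 2 were lower, 1 was higher and 12 were not called, close to the background in both directions. IAA30 fell by 2.42 (standard error 0.19) and IAA18 by 1.74 (standard error 0.17), both members of the Aux/IAA repressors of auxin signalling. IAA18 went from 1395, 1440, 1624 and 1333 to 382, 439, 458 and 457, with little spread in either genotype. IAA33, of the same family, rose by 2.19 (standard error 0.30), from 27.4 on 1 wild-type array and the floor on 3 to between 73.3 and 97.7 in seu ant.

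In cytokinin signalling 2 of 9 genes were lower, ARR15 and RR2. RR2 changed by -0.37 (standard error 0.12, adjusted p = 0.0462), a call lost when arrays were centred or quantile-normalized, in the fit to 8 arrays, and without wild-type replicate 1, 2 or 4 or seu ant replicate 1, 2 or 3 (adjusted p of 0.0524 to 0.133). RR16, another type-A regulator, had -0.52 (standard error 0.51). Of 5 gibberellin signalling genes 2 were lower. GID1B, a gibberellin receptor, went from 797, 443, 623 and 480 to 117, 145, 159 and 98, and fell by 2.16 (standard error 0.25). SPY, a repressor of the pathway, decreased by 0.61 (standard error 0.12).

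Genes of sporogenous fate and meiosis were lower for 2 of 10, with a median of -0.84. SDS, a meiotic cyclin, fell by 1.54 (standard error 0.21), from 104, 152, 148 and 94.2 to 58.7, 40.3, 45.1 and 28.9. EMS1, a receptor kinase that limits the number of sporogenous cells, decreased by 1.36 (standard error 0.12), from 3054, 3341, 4027 and 3438 to 1139, 1419, 1516 and 1320. SPL, which starts sporogenesis, was near the floor in both genotypes, with a change of -0.68 (standard error 0.39). PTL, a trihelix factor known from the boundaries of petals and sepals, went from 382, 328, 361 and 360 to 97.9, 109, 74.9 and 91.9.

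All 5 measured genes of DNA replication were lower, by small amounts. These were PRL, a subunit of the MCM helicase, which fell by 0.99 (standard error 0.13), ICU2, the catalytic subunit of DNA polymerase alpha, which fell by 0.92 (standard error 0.18), PSF2 of the GINS complex, POLA3, and POLD3. PRL went from 4892, 3981, 4354 and 4311 to 1759, 2540, 2399 and 2173. The smallest fall was that of POLD3, which decreased by 0.63 (standard error 0.10), from 1049 to 1159 in wild type to 620 to 886 in seu ant. Each of the 5 had 4 seu ant arrays below all wild-type arrays. Their mean signals put them in the 2 brighter classes, where 14.1% to 19.8% of all probe sets were lower.

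Of 10 mitotic genes 3 were lower. HTR12, the centromeric histone, fell by 0.96 (standard error 0.15), the spindle checkpoint kinase BUBR1 by 0.81 (standard error 0.19) and the Aurora kinase AUR3 by 0.56 (standard error 0.10). The related kinase AUR1 had -0.18 (standard error 0.14) and the cyclin gene CYCA1;1 had -0.19 (standard error 0.13). Among 8 histone genes, 3 were lower, HTR12 and the bright histones HTB1 and HTB2. HTB1 went from 9633, 9985, 10464 and 8453 to 4573, 5258, 6752 and 6679. The named division genes that passed all fell by less than 1 on the log2 scale.

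SNF2-type chromatin remodelling genes were lower for 8 of 10 measured, with 1 higher and a median of -0.77, in a list added after values had been seen. The largest fall was in chr31, also known as CLASSY3 and linked to RNA-directed DNA methylation, from 1424, 1319, 1440 and 1186 to 228, 241, 511 and 305. It decreased by 2.14 on the log2 scale (standard error 0.21). CHR40 decreased by 1.19 (standard error 0.19), CHR24 by 1.01 (standard error 0.09), CHR18 by 0.91 (standard error 0.14) and CHR17, an ISWI-type remodeller, by 0.77 (standard error 0.12). CHR42 rose by 1.34 (standard error 0.38), a call lost without wild-type replicate 4 (adjusted p = 0.0567) or seu ant replicate 2 (adjusted p = 0.0678). VIM1, which keeps CG methylation, decreased by 0.49 (standard error 0.11), a call lost when arrays were centred on their medians, and AGO7, an Argonaute of the trans-acting siRNA pathway, rose by 0.78 (standard error 0.14).

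Calmodulin-binding and calcium genes changed in both directions, 9 of 30 lower and 4 higher. The largest falls were in IQ-domain genes, whose products bind calmodulin and microtubules. IQD16 went from 243, 238, 273 and 200 to 28.8, 21.3 and 23 on 3 arrays and the floor on the other, and fell by 3.44 (standard error 0.21). IQD27 fell by 2.67 (standard error 0.25) and IQD18 by 2.21 (standard error 0.16). In contrast iqd21 rose by 2.61 (standard error 0.35), from 24.3 to 69.2 in wild type to 187 to 342 in seu ant. TRM22, of a family that recruits proteins to cortical microtubules, decreased by 1.03 (standard error 0.18) as 1 of 3 lower among 14 of its family. Of these 14 genes, 1 was higher and 10 were not called. Of 7 tubulin genes TUB1 rose by 1.03 (standard error 0.16) and TUB7 decreased by 0.39 (standard error 0.11), a call lost when arrays were centred on their medians and without wild-type replicate 1 or 2 or seu ant replicate 1 or 2 (adjusted p of 0.0561 to 0.077).

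Sugar and starch genes were higher for 10 of 31, with 1 lower and a median of 0.06. Next to BAM5 and SWEET10 stood SWEET4, which went from 46.3, 31.8, under the floor and 29.3 to 338, 499, 137 and 191. SWEET17, a vacuolar fructose transporter, went from 138, 175, 273 and 212 to 1518, 903, 1185 and 1233, a rise of 2.62 (standard error 0.23). CT-BMY, a chloroplast beta-amylase of night-time starch breakdown, rose by 2.84 (standard error 0.35), from 193, 156, 359 and 309 to 1792, 1471, 1590 and 2102. APL3, a subunit of the enzyme that starts starch synthesis, decreased by 0.60 (standard error 0.19, adjusted p = 0.0386), a call lost when arrays were centred or quantile-normalized and without any 1 of the 8 arrays except seu ant replicate 3 (adjusted p of 0.0514 to 0.11). DPE1, an enzyme that rearranges maltodextrins, had 0.31 (standard error 0.08), below the size asked of a call, but was called higher when arrays were centred on their medians (0.39).

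Of 12 genes of cold, drought and abscisic acid response 8 were higher and 0 lower in limma, with a median of 0.68. COR15A went from 36.9, 44.1, 73.6 and 93 to 1190, 958, 319 and 378, and its homologue COR15B from 57.9, 53.6, 66 and 89.2 to 527, 523, 323 and 353. The rises were 3.40 (standard error 0.59) and 2.69 (standard error 0.25). AT2G46140, a late embryogenesis abundant protein, rose by 1.94 (standard error 0.20) and the dehydrin COR47 by 1.44 (standard error 0.40). COR47 is a dim transcript, at 37 to 131 in seu ant, and its call was lost without wild-type replicate 3 (adjusted p = 0.0571). LEA18 rose by 1.11 (standard error 0.36) with overlapping arrays. Its call was lost under quantile normalization and without wild-type replicate 1, 3 or 4 or seu ant replicate 2, 3 or 4 (adjusted p of 0.0596 to 0.114).

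Nuclear genes for light harvesting and the photosystems were higher for 5 of 12 and lower for none, while plastid genes of the same complexes were called for 0 of 20 in limma. LHCB4.3, an antenna protein of photosystem II, rose by 2.1 (standard error 0.22), from 290, 168, 295 and 367 to 1426, 1198, 891 and 1186. NPQ4, which starts the release of excess light as heat, rose by 0.49 (standard error 0.15) and PSBY by 0.47 (standard error 0.11). Lhca5 and ELIP2 rose by 1.09 and 1.08 with overlapping arrays, and the calls of Lhca5, ELIP2 and NPQ4 were fragile. That of Lhca5 was lost without wild-type replicate 2 or 3 or seu ant replicate 1, 2 or 4 (adjusted p of 0.0635 to 0.0954), and that of ELIP2 without wild-type replicate 1 or 3 or seu ant replicate 1, 2 or 4 (0.0815 to 0.108). That of NPQ4 was lost without wild-type replicate 2 or seu ant replicate 1, 2 or 4 (0.0575 to 0.0981) and under quantile normalization. PSBW had 0.14 (standard error 0.14) and RCA, the Rubisco activase, 0.34 (standard error 0.19). Of 11 genes of carbon fixation and chlorophyll synthesis none was called. Over all 69 plastid genes measured, 0 were lower and 0 higher. The RNA had been amplified before labelling, and whether that step carried plastid transcripts as it did nuclear ones was not tested. The lack of calls thus does not show that plastid transcripts were unchanged.

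**Figure D5:**
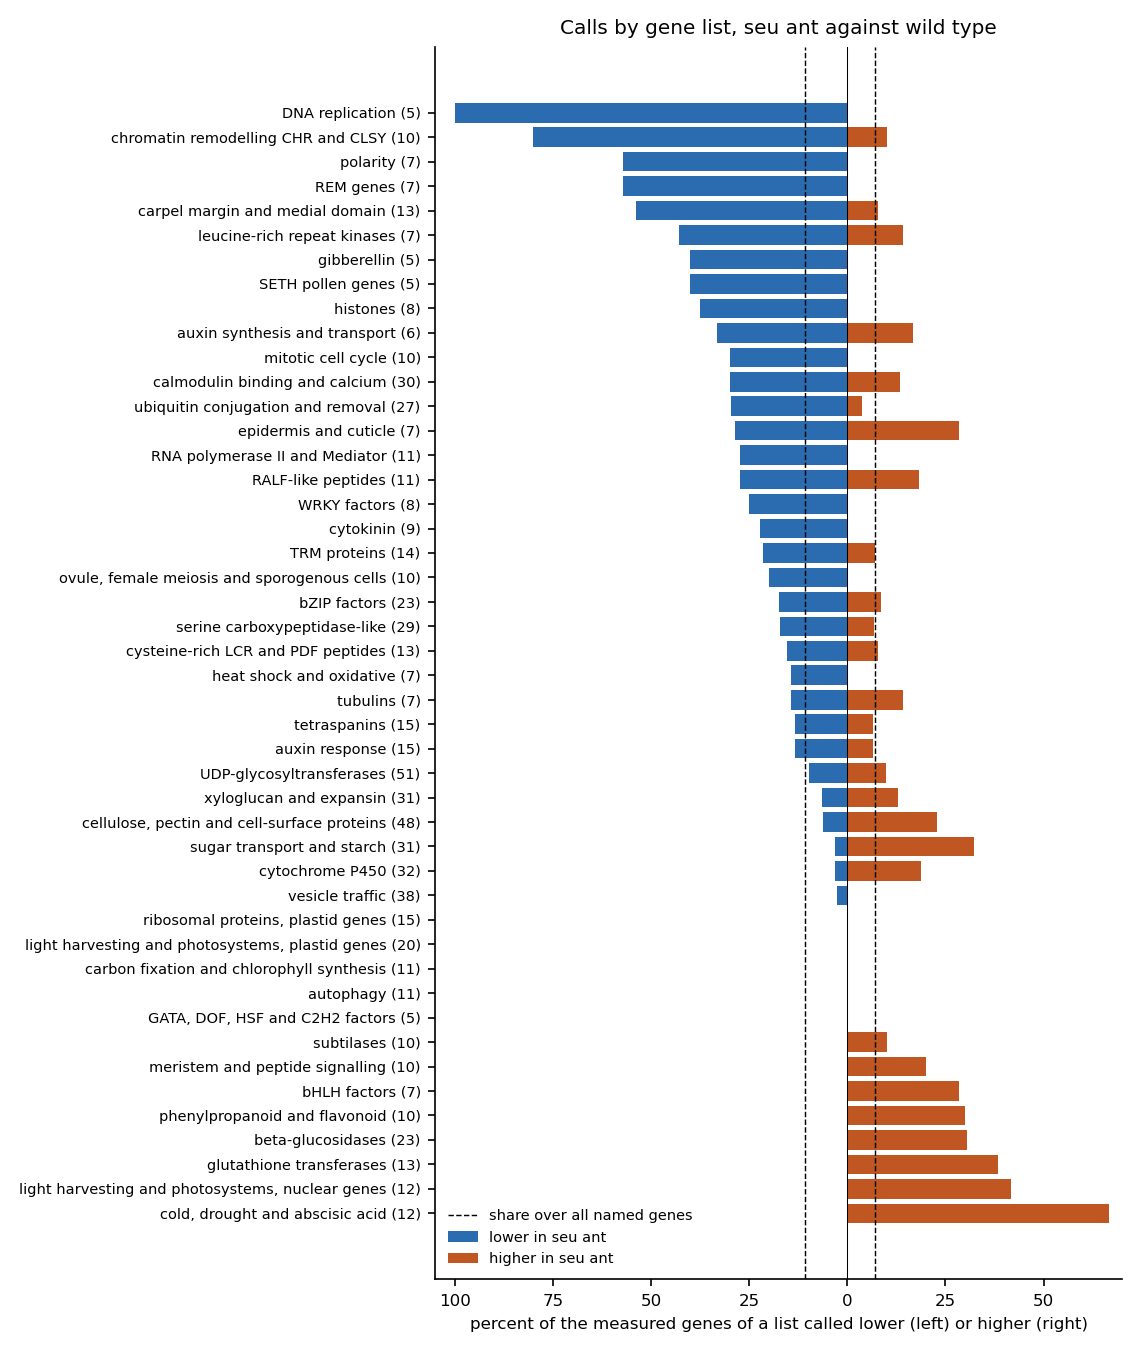
Percent of the measured genes of each gene list called lower (blue, to the left) or higher (orange, to the right) in seu ant, with the number measured in parentheses, for the lists of 5 or more genes shown, the study's candidates left out; dashed lines are the shares over all named genes, 10.8% lower and 6.94% higher. DNA replication (5 of 5 lower) and cold response (8 of 12 higher) stand at the ends, and lists such as autophagy and the plastid genes show no call.

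Calls among cell wall genes were more often higher than lower, but most of these genes were not called. Among 48 genes for cellulose, hemicellulose, pectin and cell-surface proteins 11 were higher, 3 lower and 34 not called, with a median of 0.0. Among 31 for xyloglucan and expansins 4 were higher, 2 lower and 25 not called, with a median of 0.01. Over all named genes 6.94% were higher and 10.8% lower. CSLA01, of the mannan synthase family, had 29.9, 50, 36.8 and under the floor in wild type and 944, 515, 75.3 and 169 in seu ant. Its rise of 3.19 carried a standard error of 0.77, and without seu ant replicate 3, the lowest, it was 3.83. TBL26, of the wall acetylation family, went from 287, 288, 239 and 290 to 2898, 1036, 796 and 1618. XTH32, which cuts and rejoins xyloglucan, lay between 393 and 773 in wild type and between 2291 and 3141 in seu ant, a rise of 2.28 (standard error 0.17). TBL30, CSLA03 and CSLC04 rose by 2.17, 1.91 and 1.71 from dim levels. EXPB3, a beta-expansin, rose by 1.39 (standard error 0.30), whereas EXPB1 fell by 1.15 (standard error 0.23). CSLC12, of the family that builds the xyloglucan backbone, decreased by 1.0 (standard error 0.17) and TBL36 decreased by 0.80 (standard error 0.20). The bright arabinogalactan protein gene AGP31 had 0.26 (standard error 0.11).

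Of 4 genes of the stomatal lineage 2 were higher. SPCH, the bHLH factor of the first step in that lineage, rose by 2.61 (standard error 0.42), from 29.7, under the floor, 77.4 and 30 to 336, 148, 173 and 179. STOMAGEN, the peptide that promotes stomata, was under the floor on 2 wild-type arrays and at 584, 133, 120 and 173 in seu ant, a rise of 3.13 (standard error 0.59). The later stomatal factors MUTE and FMA had 0.39 (standard error 0.28) and 0.47 (standard error 0.41) at levels near the floor and did not pass. Of 7 genes of the epidermis and cuticle 2 were higher and 2 lower. TRY, a single-repeat MYB protein that limits trichomes, went from 357, 249, 235 and 273 to 693, 788, 619 and 601, and SHN3, which promotes cuticle formation, rose by 1.27 (standard error 0.27). HDG4, an HD-ZIP gene, was at the floor throughout seu ant and on 1 wild-type array, and its call was lost without wild-type replicate 1 (adjusted p = 0.0638) or 2 (adjusted p = 0.0604).

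Families of secondary metabolism and detoxification were listed after values had been seen, and most of their members were not called. Of 23 beta-glucosidase genes 7 were higher and 0 lower, of 13 glutathione transferases 5 were higher and 0 lower, and of 32 cytochrome P450 genes 6 were higher and 1 lower. BGLU44 went from 318, 154, 186 and 264 to 2350, 1833, 874 and 1799, GSTU20 from 412, 228, 231 and 387 to 2123, 2682, 1319 and 1926, and CYP71B26 from 330, 234, 274 and 436 to 2926, 2008, 2531 and 2610. Their rises were 2.86, 2.69 and 3.01, with standard errors of 0.33, 0.33 and 0.26. CYP71B6 rose by 2.02 (standard error 0.21) and GSTU23 by 1.58 (standard error 0.26). BGLU28 had 65, 208, 67 and 70 in wild type and 1473, 534, 172 and 728 in seu ant, so that its arrays overlapped. The UDP-glycosyltransferases, which join sugars to hormones and other small molecules, were split evenly, 5 of 51 lower and 5 higher, with a median of 0.0. These counts are near the shares over all named genes, 10.8% lower and 6.94% higher. UGT74F1, which acts on salicylic acid, fell by 3.28 (standard error 0.31), from 163, 204, 117 and 322 to 34.5 on 1 array and the floor on 3. UGT76C2, which acts on cytokinins, fell by 2.01 (standard error 0.33), and GT72B1 rose by 2.28 (standard error 0.26). PAP1, a MYB activator of anthocyanin synthesis, was at or near the floor in wild type and at 38.2 to 85.8 in seu ant.

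CLE41, a peptide of the vascular cambium, rose by 2.28 (standard error 0.46), from 117, 86.8, 136 and 106 to 1108, 490, 288 and 515. EFR, the receptor of a bacterial elongation factor, was at the floor in wild type and at 162, 79.9, 48.4 and 135 in seu ant, at least 6.00-fold higher. The bZIP factor bZIP44 rose by 2.52 (standard error 0.19) and EEL decreased by 1.30 (standard error 0.14). UBC16, a ubiquitin-conjugating enzyme, fell by 2.06 (standard error 0.34) as 1 of 8 lower among 27 of its group, of which 1 was higher. WRKY22 fell by 1.55 (standard error 0.27).

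Some groups held few or no calls. Of 38 genes of vesicle traffic 1 was lower, and of 11 autophagy genes none was called, beside 10.8% lower and 6.94% higher over all named genes.

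Called genes were found along all 5 chromosomes. The share of lower genes ranged from 8.84% on chromosome 2 to 12.2% on chromosome 3, and that of higher genes from 6.5% on chromosome 3 to 7.45% on chromosome 1. In 449 runs of 30 consecutive measured genes the median was 3 lower and 2 higher. The highest counts were 12 lower between AT5G64650 and AT5G65260, and 9 higher between AT2G39950 and AT2G40490. In the first of these runs seu had 0 lower and 1 higher genes and ant 2 lower and 0 higher. In the second seu had 0 lower and 2 higher and ant 1 lower and 2 higher.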

How the data were processed

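RNA of hand-dissected gynoecia was hybridised to ATH1 arrays, 1 per pool. The authors deposited MAS5 signal intensities on a linear scale (version not given in the sources used here), with each array scaled to a common trimmed mean. The loess-normalised values tested in the study were not used here. Intensities under 16 were set to 16 and converted to log2 from the deposited values. Differences were tested in limma 3.58.1 (R 4.3.3) with 1 mean per genotype over all 16 arrays and Benjamini-Hochberg adjustment over 22746 probe sets, leaving out 64 control probe sets. To be called, a probe set had to differ by over 0.35 on the log2 scale at an adjusted p under 0.05. The labels do not say that replicates share a plant, batch or day, nor that pools came from separate growths, so p-values measure the spread between these arrays, which may be technical in part.

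Probe sets were named from the platform annotation (13436) and from a table of the study (340 more), symbols were updated from RefSeq, and 8970 were left unnamed. The platform listed several genes for 503. Where several probe sets named 1 gene, the brightest stood for it. Genes named in the text were the 15 largest changes in each direction without overlap between genotypes, genes at the floor on all arrays of 1 genotype, and the strongest called and brightest uncalled members of each list, of which a selection is given. The members and lists were chosen with earlier results of these data known, and family lists were added after values had been seen. Results of 1 gene family are not reported here. Some members whose symbol matched another gene were dropped from the lists.

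On simulated data with normal noise and no floor, 156 of 200 probe sets changed by 1 on the log2 scale were recovered. In the same simulation 16 unchanged ones were called. The changed probe sets were drawn from the brighter ones and were far fewer than the calls in the data. The recovery thus does not extend to dim probe sets near the floor. Alternatives were other floors, centring, quantile normalization, a filter on dim probe sets, a fit to 8 arrays, an unmoderated ANOVA across all probe sets, a trended robust prior and leaving out each array. A planned count of promoter motifs was not run, as promoter sequences were not used here.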

Additional observations from a re-analysis of the deposited data

Results flagged for a closer look

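In 315 groups of 4 arrays, 25 had 1 array farther from the other three than Dixon's 95% critical value allows. For normal values without a floor, chance alone flags about 1 in 20 such groups. Where the remaining arrays are all at the floor, any value above it is flagged. That rate therefore does not apply to the count of 25. All values here are log2 signals.

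Among genes well above the floor, SEU was low on wild-type replicate 4 (9.62) and on seu ant replicate 1 (7.88), and REM22 was high on wild-type replicate 1 (11.79). KAN2 was low on seu ant replicate 1 (9.38), WAG2 on wild-type replicate 1 (6.12), NPQ4 on wild-type replicate 2 (11.62) and TBL26 on wild-type replicate 3 (7.90). BGLU28 was high on wild-type replicate 2 (7.70) and AT2G46140 on seu ant replicate 3 (10.65). IAA30 (5.38) and LEA18 (5.69) were low on seu ant replicate 1, and YUC2 on seu ant replicate 2 (6.13). A dimmer gene, AT5G19580, was at the floor on seu ant replicate 4 (4.00) and at 5.49 to 5.77 on the other seu ant arrays.

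In the other 12 groups the remaining arrays were all at the floor of 4.00. In wild type these were AT3G49270 (5.24) and IAA33 (4.78) on replicate 4, and CSLA03 (4.91), PAP1 (4.05), AMS (5.25) and MEE48 (4.32) on replicate 1. In seu ant they were MUTE (5.56), AT5G07230 (4.88) and SPL (4.48) on replicate 1, CYP71B5 (4.07) on replicate 2, and UGT74F1 (5.11) and PDF2.5 (4.14) on replicate 4.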

How the results depend on the processing

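The counts of 2597 lower and 1887 higher probe sets stayed within 1.5 times under each alternative. Lower counts ran from 1758 (arrays centred) to 2857 (dim probe sets left out), and higher counts from 1502 (fit to 8 arrays) to 2316 (arrays centred). Without 1 array at a time they were 2126 to 2563 and 1642 to 1941. The median change over all probe sets moved from -0.031 to 0.053 when arrays were centred. Of 145 called named genes besides SEU, 112 kept their call under every alternative that tested them and 33 lost it under at least 1. Of the 33, 26 lost it without 1 or more arrays. Leaving out wild-type replicate 1, wild-type replicate 2 or seu ant replicate 1 lost 19 calls each. Leaving out any other array of the 2 genotypes lost 6 to 18, and the fit to 8 arrays lost 19. AMS, which was not called (0.08), changed sign with a floor of 32 (-0.03) and ranged from -0.17 to 0.39 without 1 array. These causes were not tested. No paired analysis was possible because the labels give the genotypes no shared replicate numbers. The floor limits what can be read from dim probe sets, since 1147 were at it on all 8 arrays and the second dimmest of 5 brightness classes had a median standard error of 0.373, against 0.115 in the brightest.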
